A study of Homo sapiens with 12 samples.

Results

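Control cells of 2 kinds were compared for the chromatin sites of hnRNPK, without any library from cells with CRLM1 gain. The members were the peaks of 4 lists, 2 from cells with the antisense construct (antisense control) and 2 from cells with the empty construct (empty control). They numbered 8712 on chromosomes 1 to 22, X and Y, of 16214 in the 6 lists of the whole series. Both antisense lists were set against both empty lists as whole lists, so no measured value chose the members.

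The lists came from ChIP-seq, in which an hnRNPK antibody pulls down chromatin and the bound DNA is sequenced. The cells were HCT116, an established human colorectal carcinoma line, and all of them, the controls included, overexpressed hnRNPK, so the sites are those of a raised hnRNPK level. Each of the 6 immunoprecipitated libraries of the series had its own input library, which gives 12 samples, and the design states biological replicates with 2 per group. The labels say no more of the antisense construct than its name, and all libraries came from 1 cell line. Sequencing depth is unknown, because no read counts came with the lists, and it cannot be told apart from construct in a difference of peak number.

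HnRNPK (heterogeneous nuclear ribonucleoprotein K) carries KH domains, which hold single-stranded nucleic acid, and prefers stretches rich in cytosine in RNA and in melted DNA. It acts in transcription, splicing and translation, and is known as a partner of long noncoding RNAs in the nucleus and as a cofactor of p53. In ChIP-seq its sites are mapped through crosslinked chromatin, so a peak marks DNA that was pulled down and not direct contact.

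The antisense lists lay closer to transcription start sites (TSSs) than the empty lists, and the few regions called in both antisense lists and no empty list lay mostly in GC-rich gene regions, whereas those called in both empty lists and no antisense list lay mostly between genes. These sets held 19 and 20 of 8472 regions, and regions called only in a pair of lists with different constructs numbered 7 to 36. The 2 antisense lists were near each other in peak number, GC content and most genic class shares, but less so in peak width. They shared 1.15% of their regions, so most of their peaks did not repeat by position. Of their 50 highest-scoring peaks, 36.0% and 38.0% overlapped a peak of the other antisense list. The 2 empty lists were far apart, 1 on each side of the antisense lists in peak number, GC content, clustering and position. With 2 lists against 2 the exact permutation test has 6 arrangements and cannot give a p below 0.33, so groups are described by whether their lists overlap and by the spread between replicates.

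Examples of the sequence under the peaks are given first, to show the letters of each set of regions. Each is the central 160 bases of the stretch that the named lists had in common, from the plus strand of GRCh38, in lower case with runs of 4 or more C or G in capitals. They were taken from the best-ranked regions of each set whose window held no untranslated region. From regions called in both antisense lists and in no empty list came windows at chr19:2479490-2479649 downstream of the TSS of GADD45B, a growth arrest and stress response gene, at chr5:177491687-177491846 in an intron of PDLIM7, a scaffold protein of the actin cytoskeleton, and at chr17:7579880-7580039 in CD68, which encodes a lysosomal membrane glycoprotein.
GADD45B window: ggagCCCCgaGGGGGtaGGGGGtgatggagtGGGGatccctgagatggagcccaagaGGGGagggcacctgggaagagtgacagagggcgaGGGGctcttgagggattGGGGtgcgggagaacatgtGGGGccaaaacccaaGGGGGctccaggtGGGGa
PDLIM7 window: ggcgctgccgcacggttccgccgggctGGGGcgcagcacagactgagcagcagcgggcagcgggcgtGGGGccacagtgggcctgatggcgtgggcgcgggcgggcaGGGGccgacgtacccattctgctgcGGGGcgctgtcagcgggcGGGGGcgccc
CD68 window: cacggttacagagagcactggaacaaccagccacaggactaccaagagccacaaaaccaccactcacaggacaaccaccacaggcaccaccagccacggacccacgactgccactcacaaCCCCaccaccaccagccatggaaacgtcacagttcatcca

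The GADD45B window had a GC content of 66.2% and 10 such runs, 9 of them of G, which is C on the other strand. The PDLIM7 window held 5 runs. The CD68 window held 1 run but repeated short cytosine-rich triplets.

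Regions called in both empty lists and in no antisense list looked different. Their 3 best-ranked regions gave windows at chr22:10727264-10727423, at chr4:49098323-49098482 and at chr10:133689356-133689515, the last near the pseudogene DUX4L20, a copy of the DUX4 family of subtelomeric repeats.
Chromosome 22 window: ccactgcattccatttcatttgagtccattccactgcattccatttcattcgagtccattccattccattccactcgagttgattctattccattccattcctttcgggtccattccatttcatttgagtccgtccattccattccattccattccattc
Chromosome 4 window: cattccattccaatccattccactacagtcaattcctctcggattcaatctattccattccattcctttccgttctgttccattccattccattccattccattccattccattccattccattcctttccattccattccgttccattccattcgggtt
Chromosome 10 window: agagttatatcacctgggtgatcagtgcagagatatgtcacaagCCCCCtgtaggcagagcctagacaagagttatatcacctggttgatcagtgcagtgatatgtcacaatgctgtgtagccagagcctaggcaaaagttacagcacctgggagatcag

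The first and second windows were made of tandem copies of the letters cattc, the unit known from human satellite DNA, and held no run of 4 C or G. Their GC contents were 42.5% and 41.9%. The chromosome 10 window held 1 run.

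The 2 best-ranked regions called in all 4 lists are shown as examples called with both constructs, at chr4:49709976-49710135 and at chrY:11293986-11294145. Whether their signal depended on the construct was not tested.
Shared chromosome 4 window: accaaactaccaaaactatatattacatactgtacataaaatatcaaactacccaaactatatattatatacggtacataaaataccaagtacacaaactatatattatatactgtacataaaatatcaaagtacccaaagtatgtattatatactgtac
Shared chromosome Y window: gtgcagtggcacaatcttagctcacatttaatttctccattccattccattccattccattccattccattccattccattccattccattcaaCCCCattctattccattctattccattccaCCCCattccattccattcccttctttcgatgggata

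The shared chromosome 4 window had a GC content of 24.4% and no C or G run, and the shared chromosome Y window again carried tandem cattc. Tandem CATTC, searched as CATTCCATTC on both strands, was found in 162 of all 8472 merged regions (1.91%), in 0 of the 19 regions of both antisense lists alone, in 4 of the 20 of both empty lists alone and in 6 of the 16 called in all 4. A count of 0 of 19 allows a share of up to 15.8%. Among the peaks of each list it was found in 1.55% and 1.89% of antisense control replicates 1 and 2, in 1.05% of empty control replicate 1 and in 5.56% of empty control replicate 2. In the 50 highest-scoring peaks it was in 6 and 9 of the antisense lists, in 5 of empty control replicate 1 and in 29 of empty control replicate 2.

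The number of peaks was 2262 and 2224 in the antisense lists and 1619 and 2607 in the empty lists. The antisense lists both lay between the empty lists. The means were 2243 ± 26.9 and 2113 ± 699 (SD, n = 2), and the two-sided exact permutation test of the log2 number gave p = 1. The spread of the empty lists was therefore far larger than the difference of 130 peaks between the constructs.

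TSS-proximal peaks, whose midpoint lay within 1 kb of the 5' end of a gene record, made up 8.80% of the list in antisense control replicate 1 (95% Wilson interval 7.70 to 10.0%). They made up 10.2% in antisense control replicate 2 (8.97 to 11.5%). In the empty controls they made up 4.26% in replicate 1 (3.38 to 5.36%) and 6.60% in replicate 2 (5.71 to 7.62%). Such windows cover 3.81% of the ungapped genome, a value inside the interval of empty control replicate 1 only. The intervals cover counting error only. Both antisense shares lay above both empty shares, at means of 9.48 ± 0.965% and 5.43 ± 1.65% (SD, n = 2). The difference of 4.05 percentage points exceeded the combined SD of 1.91, with an exact permutation p = 0.33, the smallest that the design allows.

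**Figure D1:**
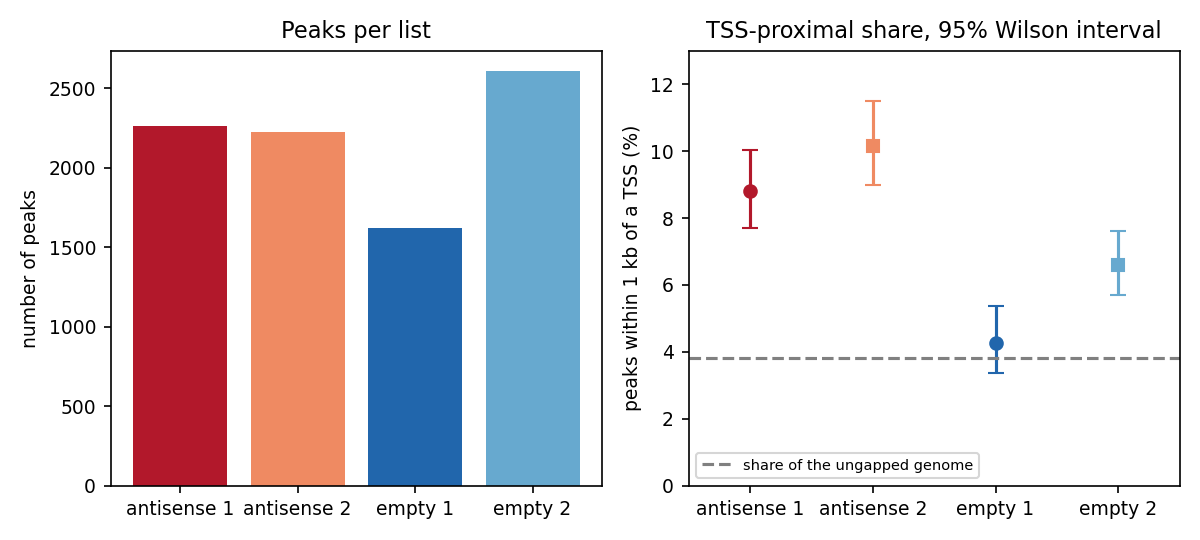
Left, bars give the number of peaks in each of the 4 lists. Right, points give the percent of peaks within 1 kb of a TSS with 95% Wilson intervals, and the dashed line is the share of the ungapped genome, 3.81%. Both antisense lists, at 8.80% and 10.2%, lie above both empty lists, at 4.26% and 6.60%, while peak number is lowest and highest in the 2 empty lists.

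The difference was concentrated at the start sites themselves. Midpoints within 500 bp of a TSS made up 5.31% and 6.25% of the antisense lists, against 2.66% and 4.22% of the empty lists. Between 5 and 10 kb from a TSS the shares were 11.5% and 12.3% against 11.7% and 12.3%, so there the lists of the 2 constructs overlapped. For protein-coding genes alone the TSS-proximal share was 5.61% and 6.52% in the antisense lists, and 1.30% and 3.57% in the empty lists.

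The TSS-proximal share differed with peak width, although the groups overlapped in width itself. The median width was 728 and 662 bp in the antisense lists and 720 and 516 bp in the empty lists. Peaks over 1 kb made up 14.7% and 8.54% of the antisense lists and 14.5% and 3.8% of the empty lists. Among peaks over 1 kb, 23.4% and 30.5% were TSS-proximal in the antisense lists, against 8.55% and 10.1% in the empty lists. Among peaks of 400 to 1000 bp the shares were 6.32% and 8.28% against 3.54% and 6.52%, and the groups overlapped. The shares were also reweighted to a common mix of 3 width classes, whose bounds differ from those above and are not given here. They became 7.29% and 10.1% against 4.02% and 9.52%. The difference was then 1.92 percentage points, with an exact permutation p = 0.667. How far this value rests on the choice of bounds was not tested.

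The TSS-proximal share was also read by GC content, which did not follow it from list to list. The mean GC content of the peaks was 43.2% and 43.3% in the antisense lists, 39.0% in empty control replicate 1 and 45.5% in empty control replicate 2, against 40.9% for the ungapped genome. The empty lists thus lay below and above the antisense lists, and the exact permutation test gave p = 1 for a difference of 1.00 percentage point. Among peaks with a GC content of 60% and over, 118 of 233 and 124 of 229 were TSS-proximal in the antisense lists (50.6% and 54.1%), against 16 of 41 and 80 of 250 in the empty lists (39.0% and 32.0%). At 50 to 60% GC the shares were 13.6% and 13.8% against 9.80% and 7.62%. At 40 to 50% GC they were 4.304% and 6.22% against 4.283% and 3.33%, so that the groups barely separated. Under 40% GC the order turned, with 1.15% and 1.91% in the antisense lists and 2.28% and 2.30% in the empty lists. Reweighted to a common mix of the 4 GC bands, the shares were 8.16% and 9.46% against 7.14% and 5.93%, which still did not overlap, and the difference was 2.28 percentage points, with a combined SD of 1.26 and an exact permutation p = 0.33.

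**Figure D2:**
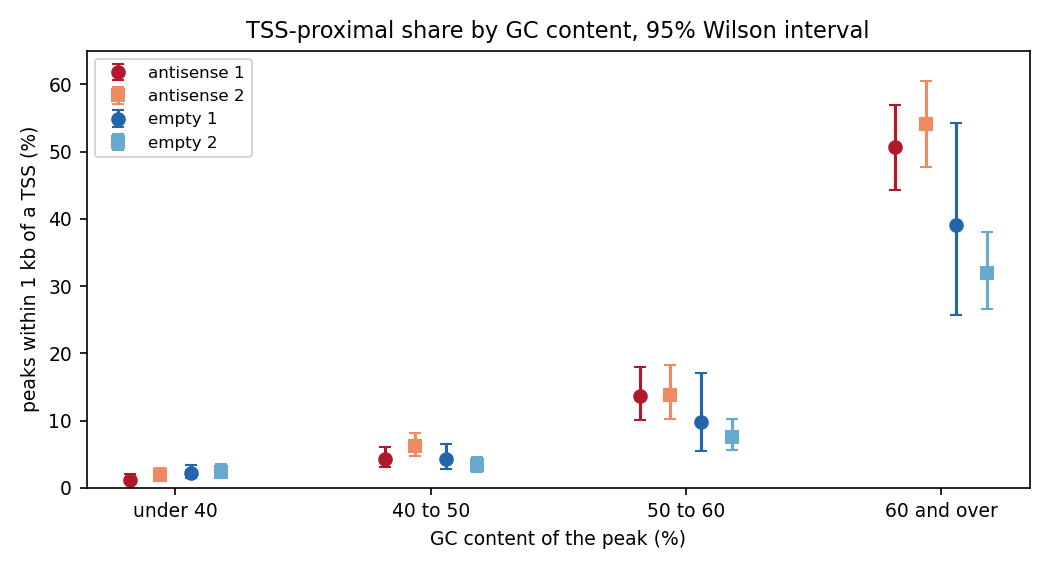
The horizontal axis groups peaks by GC content, and points give the percent of them within 1 kb of a TSS with 95% Wilson intervals, for each of the 4 lists. At 60% GC and over the antisense lists stand at 50.6% and 54.1% and the empty lists at 39.0% and 32.0%, and under 40% GC all 4 lists stand at 1.15% to 2.30%.

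Cytosine tracts were counted because hnRNPK is known to hold them. CCCC occurred 10.5 and 10.5 times per kb on both strands together in the antisense peaks, and 5.71 and 10.1 times in the empty peaks. TCCC, which can overlap it, occurred 10.5 and 10.7 times per kb against 7.91 and 10.7. CCCTCCC, which holds TCCC, occurred 0.725 and 0.831 times per kb against 0.356 and 0.678. For CCCC and CCCTCCC the groups did not overlap, with an exact permutation p = 0.33 for each, but empty control replicate 2 stood close to the antisense lists and empty control replicate 1 far below. Without empty control replicate 1 the CCCC difference was 0.414 per kb in place of 2.61, and that of CCCTCCC 0.100 in place of 0.261. Within peaks of under 40% GC the CCCC density was 2.93, 2.95, 2.95 and 2.81 per kb in antisense replicates 1 and 2 and empty replicates 1 and 2, so at low GC the lists did not separate. In the other 3 bands both antisense lists lay above both empty lists, at 7.16 and 7.10 against 6.79 and 6.44 per kb at 40 to 50% GC, at 18.2 and 18.3 against 15.9 and 16.4 at 50 to 60%, and at 36.8 and 37.5 against 29.8 and 34.8 at 60% and over.

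By genic class, the antisense lists had larger shares of midpoints in exons of coding genes and smaller shares between genes. By count, empty replicate 2 had 54 midpoints in coding sequence, against 55 and 52 in the antisense lists. In 3' UTR it had 43 against 42 and 42. For 5' UTR the shares were 1.5% and 2.2% in the antisense lists and 0.618% and 1.27% in the empty lists, against 0.356% of the genome. Coding sequence held 2.43% and 2.34% against 0.988% and 2.07%, and 3' UTR 1.857% and 1.888% against 1.482% and 1.649%. In these 3 classes both antisense lists lay above both empty lists, by means of 0.911, 0.855 and 0.307 percentage points. Without antisense control replicate 2 the 5' UTR difference was 0.561 points, and without empty control replicate 1 the CDS difference was 0.313 points. With the upstream 10 kb counted before the gene body, the 5' UTR difference was 0.477 points and the CDS difference 0.334 points, and for CDS the groups then overlapped (exact permutation p = 0.667). Intergenic midpoints made up 29.1% and 28.9% of the antisense lists and 31.4% and 31.1% of the empty lists. That difference, −2.29 percentage points, was the largest of the 7 classes against its combined SD, 0.280. That SD rests on 2 lists per group and does not include counting error as such. The Wilson intervals of the intergenic share were 27.3 to 31.0% and 27.0 to 30.8% in the antisense lists. In the empty lists they were 29.2 to 33.7% and 29.4 to 33.0%, so the intervals of the constructs overlapped. The differences in 5' UTR, CDS, 3' UTR and intergenic share each had an exact permutation p = 0.33. Each had a Benjamini-Hochberg value over the 7 classes of 0.583. Without the peaks holding tandem CATTC the intergenic difference was −1.14 points and the groups overlapped. Without chromosomes 21 and 22 the 3' UTR difference was 0.137 points, again with overlap. Introns held 53.4% and 53.1% against 56.2% and 51.5%, non-coding exons 2.96% and 2.83% against 2.22% and 3.64%, and the 10 kb upstream 8.71% and 8.72% against 7.04% and 8.75%, and in each the antisense lists fell between the empty lists.

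**Figure D3:**
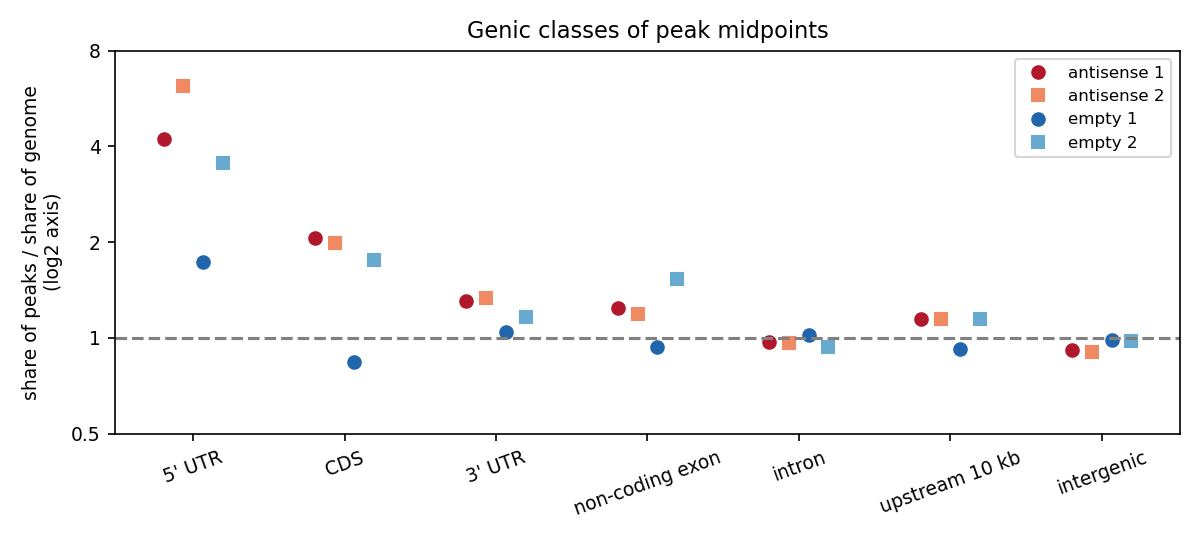
For each genic class of peak midpoints the vertical axis, on a log2 scale, gives the share of peaks divided by the share of the ungapped genome, with a point for each of the 4 lists. At 5' UTR the ratios are 4.22 and 6.19 for the antisense lists and 1.73 and 3.56 for the empty lists, and in introns all lie between 0.933 and 1.02.

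The peaks covered 1.80 and 1.62 Mb in the antisense lists and 1.29 and 1.5 Mb in the empty lists, without overlap of the groups. The difference was 0.320 Mb with a combined SD of 0.194 (exact permutation p = 0.33). Scores, which are the authors' own and rank peaks within a list, had medians of 56.7 and 55.7 against 56.0 and 57.2, and the share of scores of at least 100 was 1.59% and 2.02% against 1.54% and 6.21%. Empty control replicate 2 stood apart there from the other 3 lists.

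The location of peaks along the chromosomes set empty control replicate 2 apart. It had 164 peaks on chromosome 21 and 179 on chromosome 22, against 34, 36 and 16 on chromosome 21 and 38, 43 and 18 on chromosome 22 in antisense replicates 1 and 2 and empty replicate 1. The share of its peaks on these chromosomes was 4.61 and 5.15 times their share of the genome, while the antisense lists lay at 1.10 and 1.19 for chromosome 21 and at 1.26 and 1.45 for chromosome 22. Its peaks there lay in 18 bins of 5 Mb, as many as those of antisense control replicate 2, so not all were at 1 site. The bins do not show an even spread, since the 34 peaks of empty replicate 1 there already filled 16. Another peak within 10 kb was found for 28.9% of its peaks on the 2 chromosomes. The shares were 0%, 10.1% and 5.88% in antisense replicates 1 and 2 and empty replicate 1. On chromosome 17 the ratios were 2.04 and 2.23 in the antisense lists and 1.47 and 3.19 in the empty lists. On chromosome 19, which holds 25.3 protein-coding genes per Mb, they were 2.36 and 2.33 against 0.900 and 2.56.

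Peaks were also denser near each other in that list. A neighbour within 10 kb was found for 4.33% and 4.90% of the antisense peaks, for 2.04% of the peaks of empty control replicate 1 and for 14% of those of replicate 2. Of the 366 such peaks in empty control replicate 2, 99 lay on chromosomes 21 and 22 and 72 on chromosome 17. Within 5 Mb of a chromosome end lay 9.81% and 10.1% of the antisense peaks and 6.18% and 14.8% of the empty peaks, against 7.07% of the genome. In both measures the antisense lists fell between the empty lists.

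Of 24 chromosomes, both antisense shares lay above both empty shares on 4 (16.7%), namely 1, 7, 11 and 12, and both empty shares lay above both antisense shares on 4 (16.7%), namely 10, 13, 15 and Y. With 2 lists against 2, 1 of the 6 arrangements of the labels places both lists of a given construct above both others. Both counts equal that share, so they do not separate the constructs, and the chromosomes are named as a description. Chromosome 11 differed most against its spread, with 4.77% and 4.99% of the antisense peaks and 3.40% and 3.57% of the empty peaks. That spread rests on 2 lists per group and does not include counting error as such. Chromosome 1 held 7.25% and 7.46% against 5.87% and 4.37%. Chromosome 10 went the other way, at 4.42% and 4.45% against 5.87% and 5.26%. The Y chromosome held 2 and 1 antisense peaks and 2 and 23 empty peaks, too few to weigh without empty control replicate 2. Chromosome X was almost without peaks in every list, with 2 and 1 in the antisense lists and 0 and 2 in the empty lists, although it makes up 5.27% of the ungapped genome. The 0 of 1619 peaks in empty control replicate 1 allow a share of up to 0.185%. As a description over the 24 chromosomes, which share the libraries, the ratio of peak share to genome share had a Pearson r with the density of protein-coding genes of 0.768 and 0.754 in the antisense lists and of 0.00611 and 0.433 in the empty lists. Spearman's rho was 0.579 and 0.427 against −0.183 and 0.366, so by rank antisense replicate 2 and empty replicate 2 were close.

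**Figure D4:**
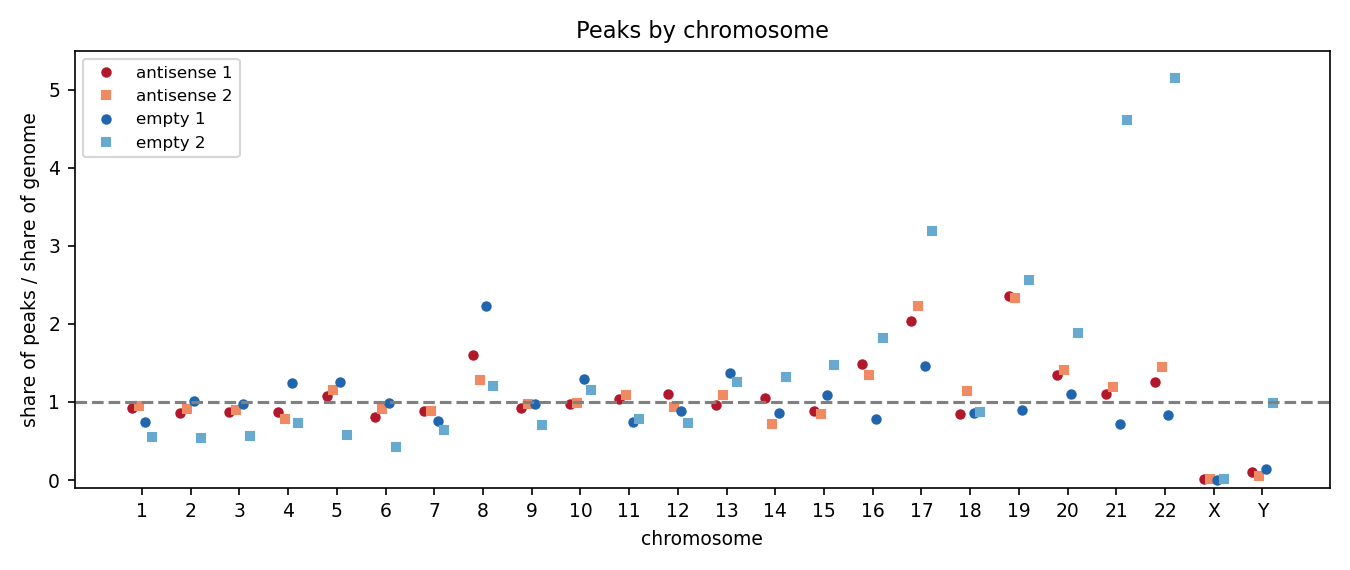
For each chromosome the vertical axis gives the share of a list's peaks divided by the chromosome's share of the ungapped genome, with a point for each of the 4 lists and a dashed line at 1. Empty control replicate 2 stands at 4.61 and 5.15 on chromosomes 21 and 22, the antisense lists run close together, and all lists are near 0 on chromosome X.

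Few positions were called more than once. The peaks of the 4 lists merged into 8472 regions. Of these, 8306 (98.0%) came from 1 list only, 121 from 2, 29 from 3 and 16 from all 4. The antisense lists shared 51 regions, 1.15% of the regions called in either (95% Wilson interval 0.876 to 1.51%). The empty lists shared 49, or 1.18% (0.891 to 1.55%). Between constructs, antisense replicate 1 shared 0.753% with empty replicate 1 and 1.5% with empty replicate 2, and antisense replicate 2 shared 0.973% and 1.39% with them. The shares between constructs thus spanned the shares within constructs, and lists with the same construct were no more alike by position than lists with different constructs. Regions called in exactly 2 lists numbered 19 for the antisense pair and 20 for the empty pair. Antisense replicate 1 alone shared 7 and 36 such regions with empty replicates 1 and 2, and antisense replicate 2 shared 12 and 27. No test was made, since pairs share lists.

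Agreement went with score rank in every list. Of the 50 highest-scoring peaks, 48.0% and 52.0% of the antisense lists and 24% and 70.0% of the empty lists overlapped a peak in any other list. Past rank 1000 these shares were 1.82% and 1.31% against 1.29% and 1.87%. With the partner list of the same construct, the 50 best peaks of the antisense lists overlapped in 36.0% and 38.0% and those of the empty lists in 22% and 44%. With the lists of the other construct the mean was 32.0% and 35.0% for the antisense lists and 15.0% and 52.0% for the empty lists.

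**Figure D5:**
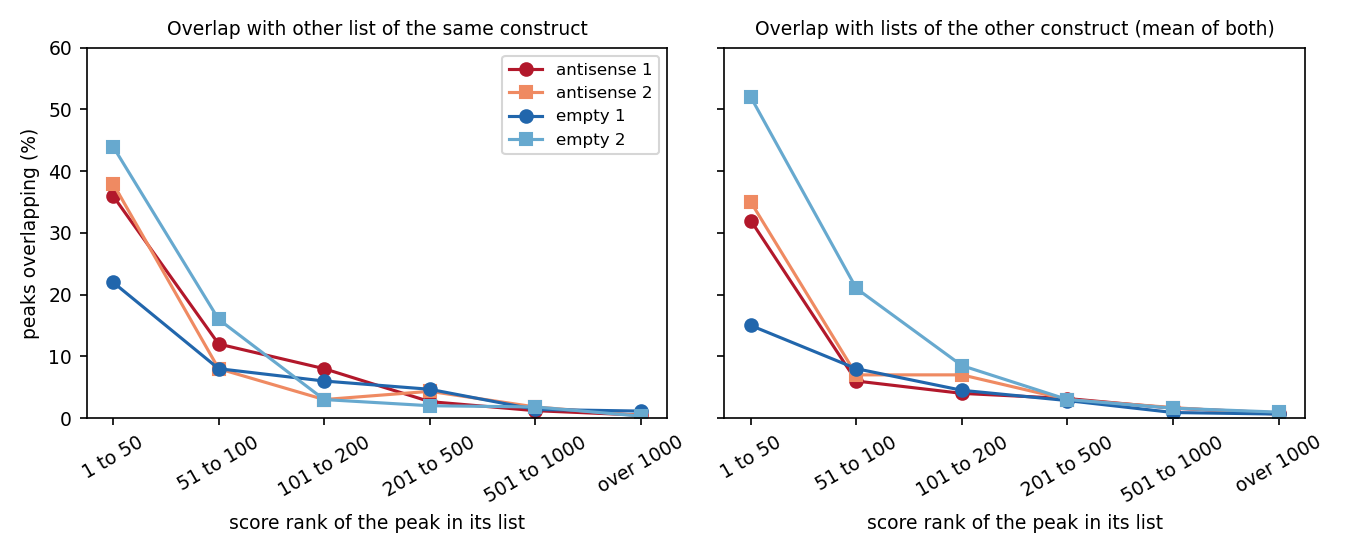
Lines give, for peaks grouped by score rank in their own list, the percent that overlap a peak of the other list of the same construct (left) and the mean percent over both lists of the other construct (right). All 4 lists drop from 15.0% to 52.0% at ranks 1 to 50 to at most 1.13% past rank 1000.

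The 19 regions called in both antisense lists and in no empty list held known gene starts. Of these, 8 were TSS-proximal (42.1%, 95% Wilson interval 23.1 to 63.7%), 15 touched a protein-coding gene by the study's rule of gene body or 5 kb upstream, and the median GC content was 66.0%. Regions called more than once were in general richer in start sites, with 5 of the 16 called in all 4 lists TSS-proximal (31.2%, 14.2 to 55.6%) and 19.3% of those in 2 or more lists, against 7.08% of those in 1 list. A protein-coding gene was touched by 4177 of the 8306 regions in 1 list and by 64 of the 166 in 2 or more lists. Their median GC contents were 41.0% and 44.9%. With empty replicate 2 left out the antisense-only set grew to 34 regions. The best-ranked lay at chr19:2478094-2480797 near GADD45B, at rank 6 in antisense replicate 1 and rank 12 in replicate 2. The second lay at chr11:65111377-65113399 over the start of TM7SF2, a sterol reductase of cholesterol synthesis, at ranks 18 and 19, and reached VPS51, a subunit of a vesicle tethering complex. The fourth lay in the PDLIM7 intron at chr5:177491275-177492234.

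Further regions of the 10 best touched coding genes. A region at chr17:7578888-7580819 spanned the start of CD68 and touched EIF4A1, an RNA helicase of translation initiation, and MPDU1. FSCN1, which bundles actin, carried a region at chr7:5593711-5595238, while empty replicate 2 had a separate peak at its start. NR2F6, an orphan nuclear receptor, carried one at chr19:17234789-17236764, and IER2, an immediate-early gene, one at chr19:13154747-13156627 that also touched STX10, a SNARE protein. PKM, the pyruvate kinase of glycolysis, completed the 10 best at chr15:72229432-72231177, at ranks 477 and 243. Outside the 10 best, and named after its values were seen, was a region at chr12:6866459-6868269 over the start of TPI1, the triosephosphate isomerase of glycolysis, at ranks 125 and 959.

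The 20 regions called in both empty lists and in no antisense list lay mostly outside protein-coding genes. None was TSS-proximal by its midpoint, which allows a share of up to 15.0%, 12 were intergenic, 3 touched a protein-coding gene and the median GC content was 42.3%. The region at chr2:160270166-160271187 still reached within 1 kb of the start of the long noncoding RNA gene LINC02478, its midpoint 1203 bp away. Of the 8306 regions in 1 list, 2428 were intergenic and 4177 touched a protein-coding gene, at a median GC content of 41.0%. The best-ranked lay at chr22:10726774-10727994 (ranks 20 and 51), at chr4:49096039-49100748 (ranks 62 and 19) and near DUX4L20 at chr10:133689034-133689907 (ranks 63 and 98). Others of the 10 best lay at chr19:27394996-27396104, at chr21:10684914-10686687 and chr21:10752106-10753623 near the orphan immunoglobulin segment IGHV1OR21-1, at chrY:11329605-11330428 near DUX4L19, at chr9:40924469-40927771 near MIR1299, at chr4:49141690-49142597, and at chr4:1809531-1810808 downstream of FGFR3, a fibroblast growth factor receptor. The 3 coding genes of the set were CDC45, a factor of the replicative helicase, RBFOX3, a neuronal splicing factor, and SMAD9, a transducer of bone morphogenetic protein signals, named here after their values were seen. Their ranks ran from 213 to 965.

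The 16 regions called in all 4 lists were led by the chromosome 4 region at chr4:49708707-49712035, which was rank 1 in both antisense lists and in empty replicate 1 and rank 5 in empty replicate 2. The 10 best were all without a protein-coding gene and lay on chromosomes 3, 4, 5, 8 and Y, 6 of them on chromosomes 4 and 5. Of the 16, 2 touched protein-coding genes. These were TRIM13, an E3 ubiquitin ligase, at chr13:49996560-49997672 with ranks 37, 236, 154 and 1167 in antisense 1 and 2 and empty 1 and 2, and CDC25C, the phosphatase that starts mitosis, at chr5:138337431-138339878 with ranks 830, 20, 319 and 571. The latter also touched FAM53C. The start of CDC25C was at a peak in every list, and was the only protein-coding start of which this held.

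Other top peaks differed by list. The third peak of antisense replicate 1, at chr17:63916655-63917400, touched GH1, the growth hormone gene, and was called in 3 lists. The second of empty replicate 1, at chr12:120290588-120292331, lay at RNU4-2, a U4 small nuclear RNA gene, and was called in no other list. The second of empty replicate 2, at chr15:20339937-20342541, touched the gene ENSG00000258654 and was called in 3 lists.

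Genes carrying a peak in the body or within 5 kb upstream numbered 1852 and 1831 in the antisense lists and 1182 and 1824 in the empty lists. The groups did not overlap, but antisense replicate 2 and empty replicate 2 differed by 7 genes, and the exact permutation test gave p = 0.33. The difference was 0.33 on the log2 scale with all lists and 0.014 without empty replicate 1. Of protein-coding genes the counts were 1142 and 1170 against 701 and 1143. In both antisense lists there were 177 protein-coding genes and in both empty lists 134, and 23 were in all, which is 13% of the former and 17.2% of the latter. In at least 1 antisense list there were 2135 (10.7% of 20033) and in at least 1 empty list 1710 (8.54%). In both antisense lists and no empty list were 90 genes (0.449%), and in both empty lists and no antisense list 53 (0.265%). Pairs of lists from different constructs shared 134 to 210 protein-coding genes, and pairs from the same construct 177 and 134, so the shared counts overlapped as well.

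Gene length went along with being called more than once. The median length of a protein-coding gene was 27.5 kb over all, 82.8 and 80.3 kb among those with a peak in the antisense lists, and 145 and 100 kb in the empty lists. It was 208 kb for genes in both antisense lists and 395 kb for genes in both empty lists. Requiring the same region in both replicates left 55 genes of all types for antisense and 34 for empty, out of 280 and 204.

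Start sites gave a wider separation than gene bodies. The start of 168 and 178 protein-coding genes lay within 1 kb of a peak in the antisense lists, against 38 and 109 in the empty lists. In both antisense lists there were 11 such genes and in both empty lists 4. Those at a peak in both antisense lists and in no empty list included TM7SF2, TPI1, CD68, TTLL12, a tubulin ligase-like protein, and ZNF467, a zinc finger protein. The reverse set held RNF225, a RING finger protein. PLXNB2, a semaphorin receptor, and the adjoining starts of TLCD1 and NEK8 were at a peak in both antisense lists and empty replicate 2. PTBP1, an RNA-binding protein of splicing, and POLR2A, the largest subunit of RNA polymerase II, were at a peak in antisense replicate 1 and empty replicate 2. Antisense replicate 1 shared 14 starts with empty replicate 2, more than the 11 it shared with its own partner.

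Promoters from RefSeq on GRCh38.p14, of 250 bases before to 50 after the start, were matched by symbol for 128 of 168, 143 of 178, 32 of 38 and 76 of 109 of these genes. CCCTCCC was found on either strand in 35.2% and 42.7% of those of the antisense lists and in 31.2% and 39.5% of those of the empty lists, against 30.6% of the 15345 promoters matched for all protein-coding genes. The groups overlapped. Their mean GC content was 67.2% and 68.4% against 64.3% and 66.4%, and 61.5% for all.

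Among 13 genes that the study names, 5 carried a peak in these lists (38.5%), against 16.8% of all protein-coding genes. The study chose genes with these libraries at hand, so the count is not independent evidence. Among the 5, TNFRSF12A, HCFC1R1 and THOC6 adjoin on chromosome 16 and were touched by the same peak of empty replicate 1. The 5 genes are therefore not separate hits. BBC3, which encodes the pro-apoptotic protein PUMA, had a peak at rank 4 of antisense replicate 1, rank 16 of antisense replicate 2 and rank 48 of empty replicate 2, in its gene body at midpoints 6345, 6331 and 6107 bp from its TSS, and none in empty replicate 1. A second region in BBC3, at chr19:47227233-47228515, was called in both antisense lists only, at ranks 673 and 90. The shared start of HCFC1R1 and THOC6, the latter a subunit of an mRNA export complex, lay at a peak in antisense replicate 1 (rank 70), empty replicate 1 (rank 7) and empty replicate 2 (rank 1117). The peak of empty replicate 1 was wide enough to reach TNFRSF12A, a receptor of the tumour necrosis factor family. KLF6, a zinc finger transcription factor, had peaks at ranks 109 and 157 of empty replicate 2 alone. The genes ZFP36, PLEKHG2, SMAD6, BMP7, SMURF2, PLPP3, HNRNPK and LINC01767, which is the CRLM1 gene, had no peak in any of the 4 lists. Without a peak at the CRLM1 gene, the lists give no check of the constructs.

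Fixed pathway lists held few peaks in either construct. Of 86 ribosomal protein genes, 4 and 4 carried a peak in the antisense lists and 0 and 0 in the empty lists, at 8 different genes. Of these the start of RPL12 was touched, at rank 1616 of antisense replicate 1, and RPL19 had the best rank, 29 in antisense replicate 2, but upstream of its TSS. Of 45 genes of adhesion and the epithelial-mesenchymal transition, 5 and 5 carried a peak in the antisense lists and 1 and 1 in the empty lists. ITGB4, the integrin beta 4 subunit of hemidesmosomes, was in both antisense lists at different places, at ranks 20 and 1276. The starts of CLDN4, a tight junction claudin, and LAMA5, a laminin chain of basement membranes, were at peaks of antisense replicate 2 only, at ranks 1538 and 383. The percent of all protein-coding genes in each list was 5.70%, 5.84%, 3.5% and 5.71%, which is the level these small counts stand beside.

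Of 40 genes of TGF-beta and bone morphogenetic protein signalling, 2 and 7 were in the antisense lists and 2 and 1 in the empty lists, so antisense replicate 2 stood apart. The start of BMP6, a secreted ligand, was at rank 231 of antisense replicate 1, and those of SMAD2, a signal transducer, and TGFB1, the ligand itself, were at ranks 271 and 1934 of antisense replicate 2. Of 33 apoptosis genes 2 and 4 were in the antisense lists and 2 and 1 in the empty lists, with the starts of BAK1 and BCL2, an effector and an inhibitor of mitochondrial permeabilization, at rank 155 of antisense replicate 1 and rank 168 of antisense replicate 2. Of 25 p53 targets 2 and 2 against 0 and 2 carried a peak, and the start of BTG2, an antiproliferative gene, was at rank 1505 of empty replicate 2.

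The remaining lists showed no separation of the constructs. Of 38 immediate-early genes 3 and 2 were in the antisense lists and 1 and 2 in the empty lists, the starts of EGR1 and JUND, both transcription factors, at ranks 1340 and 987 of antisense replicate 1. Of 46 genes of hnRNP and SR proteins 3 and 2 against 2 and 3 carried a peak, with the start of HNRNPAB at rank 741 of antisense replicate 2. PCBP3, a poly(C)-binding relative of hnRNPK on chromosome 21, had 2 peaks in antisense replicate 2 and 9 in empty replicate 2, none of them at its start and no 2 of them in the same region. Of 45 Wnt pathway genes 3 and 1 against 2 and 2 carried a peak, with the start of FZD7, a Wnt receptor, at rank 216 of antisense replicate 1. Of 19 nuclear long noncoding RNAs found, 1 and 0 against 0 and 1 did, namely NEAT1 and KCNQ1OT1. Of 73 histone genes 0 and 1 against 0 and 0 did, the linker histone H1-10 at rank 34 of antisense replicate 2.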

How the data were processed

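Peaks were measured by hnRNPK ChIP-seq in HCT116 cells, and the 4 control lists came from 4 immunoprecipitated libraries, each called against the input of its own group and number. The authors' methods describe trimming by cutadapt, Bowtie2 alignment (GRCh38) and MACS2 peak calling against input with a q-value cutoff. Each deposited peak has a chromosome, start, end, name and score. The deposited score begins at 50 in each list, and the sources used here do not say how it was scaled, so the stated cutoff could not be checked against it. Ranks and score filters were taken inside each list. Depth per library is unknown.

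Of 9059 deposited control peaks, those on chromosomes 1 to 22, X and Y were kept. Sequence came from hg38, whose letters carry no repeat marking here, so the planned share of masked repeats could not be computed. Genes came from GENCODE release 44 (62663 on these chromosomes, 20033 protein-coding), which can differ from the authors' annotation. A midpoint was put in the first class that applied, in the order 5' UTR, coding sequence (CDS), 3' UTR, exon of a non-coding transcript, intron, 10 kb upstream and intergenic. Regions were made by joining peaks that shared 1 bp or more. A gene carried a peak that touched its body or the 5 kb upstream.

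Lists are the replicates, and means of 2 lists were compared by a two-sided exact permutation test of the library labels (6 arrangements). Same-numbered lists share only a number. Alternatives were leaving out each list, stricter score filters, other TSS, gene and overlap rules, and the replicate block. Python 3.11.15, pandas 2.3.3, statsmodels 0.14.6 and pysam 0.24.0 were used, and the code was tested on simulated lists. Named genes were those the study names, those at the 10 best-ranked regions of each set (called in both antisense lists only, in both empty lists only, or in all 4), those at the 3 highest-scoring peaks of each list, and members of the fixed lists with a start at a peak. Some genes and sequences that this rule names are not reported here. The lists compared, the gene lists and the tests were chosen with earlier results of these data known.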

Additional observations from a re-analysis of the deposited data

Results flagged for a closer look

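Peaks outside chromosomes 1 to 22, X and Y were not part of the comparison. They numbered 44 in antisense control replicate 1, 33 in antisense control replicate 2, 28 in empty control replicate 1 and 242 in empty control replicate 2, which is 1.91%, 1.46%, 1.70% and 8.49% of the deposited peaks of each list. Each count is above the 3 that a count of 0 allows, which is why these peaks are given here, and peaks called in input alone were not analysed here. In empty control replicate 2 they lay on 35 different sequences, and 58 were on the same one. Its highest score outside the chromosomes was 1447, against 1319 on them, and its median score outside was 93.2, against 70.1, 67.3 and 63.1 in antisense replicates 1 and 2 and empty replicate 1. The sequences themselves were not analysed here.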

How the results depend on the processing

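Differences in which the lists of the 2 constructs overlapped took both signs when lists were left out. As antisense minus empty, leaving out each list in turn gave −0.22 to 0.47 for the log2 number of peaks, −2.93 to 1.80 percentage points for introns, −0.0296 to 1.67 for the upstream 10 kb, −0.747 to 0.674 for non-coding exons, −2.27 to 4.28 for mean GC content and −25.0 to 179 bp for median width. It gave −2.82 to 7.83 points for peaks over 1 kb, −9.42 to 2.58 for peaks with a neighbour, −4.82 to 3.77 for peaks near a chromosome end, −4.41 to 0.263 for scores of at least 100, −1.05 to 0.193 for the median score and −0.0662 to 2.69 per kb for TCCC. The TSS-proximal difference stayed positive, at 2.88 to 5.22 points, and the intergenic difference negative, at −2.44 to −2.15 points. Regions in both antisense lists and no empty list numbered 20 to 34 with a list left out, and the chromosomes on which the groups did not overlap 5 to 11 in each direction.

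With the peaks above the median score of their list, the non-coding exon difference was 0.138 points, the antisense and empty lists shared 1.91% and 1.79% of their regions, and 115 and 69 genes were in both lists of a construct. With the 1000 highest-scoring peaks these were 0.00, 2.10% and 1.95%, and 105 and 61 genes, and the intron difference was 0.650 points. The intron difference was 0.0230 with protein-coding genes only. A reciprocal overlap of at least 50% left 12 regions in both empty lists alone. Within 1 kb of the TSS, 25 and 14 genes of all types were in both lists. By the rule of gene body or 5 kb upstream, 55 and 34 genes had the same region in both. Chosen after the data were seen, peaks of under 40% GC gave a TSS-proximal difference of −0.762 points and a CCCTCCC difference of −0.0139 per kb, and leaving out chromosomes 21 and 22 gave 0.00249 points for non-coding exons. Apart from fewer peaks or genes by construction, the causes were not tested. Of 277 values under 28 alternatives, 229 kept their direction or lay within 1.5 times. This count includes values that could not change, such as differences with labels permuted within the replicate block.

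With labels permuted within the replicate block the TSS-proximal difference is the same 4.05 points and its exact permutation p is 0.5, the smallest that 2 pairs allow. The replicate 1 minus 2 difference in chromosome shares had r = 0.153 between constructs over 24 chromosomes, a hint from 2 pairs only. Unknown depth limits the comparison of peak numbers, and 2 lists per group limit all tests.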

Other observations

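Genes other than protein-coding ones are given here by type, with no test. Of 18866 long noncoding RNA genes, 550 and 541 carried a peak in the antisense lists and 394 and 521 in the empty lists, and the start of 88 and 99 against 41 and 71 was at a peak. Of 1879 miRNA genes, 29 and 17 carried a peak in the antisense lists and 7 and 17 in the empty lists. Unprocessed pseudogenes, copies made by duplication, carried a peak in 11 and 4 cases in the antisense lists and in 4 and 20 in the empty lists. None of 47 ribosomal RNA genes on these chromosomes carried a peak in any list.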
